A study of Mus musculus with 15 samples.

Results

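The 10 genes described here carry the MHC class I antigen presentation pathway: the classical heavy chain genes H2-K1 and H2-D1, the nonclassical heavy chain genes H2-T23 and H2-T24, the light chain gene B2m, the peptide transporter gene Tap1, the tapasin gene Tapbp, the immunoproteasome genes Psmb8 and Psmb9, and the transactivator gene Nlrc5. They were chosen by name from earlier results on these same libraries, with each group's change against its own control in view, so their changes are a description and carry no test. They are 10 of the 13655 genes that passed the filter on low counts in all 3 comparisons, and 10 of 10 passed it in each. RNA-Seq was performed on tissue that the labels call pancreas in all 15 libraries, each holding RNA pooled from 3 mice of the strain C57BL/6, and the study describes the KMC and KC samples as pancreatic ductal adenocarcinoma (PDAC), whereas those of MC, HC and their controls were pancreata. MC mice carry HPK1-M46, a kinase-dead form of the kinase HPK1, together with Bac-cre (labelled B), and 3 libraries at 2 months of age were compared with 3 libraries labelled B control of the same age. HC mice carry HPK1/B, and 3 libraries at 4 months were compared with 2 libraries labelled WT, also at 4 months by the labels, although the study's text gives a younger age for its cerulein-treated mice. By these labels HC and its controls differed in Bac-cre as well as in the HPK1 transgene, and the 2 cannot be told apart. KMC mice carry M46 and B beside a further allele, and 2 libraries at 9 months were compared with 2 libraries of KC mice, which carry B and the same further allele but no M46 and were 15 months old. MC, HC and their controls were treated with cerulein, a peptide used to overdrive acinar secretion and so bring on acute pancreatitis. The labels give no cerulein treatment for KMC and KC. Bac-cre is a tamoxifen-inducible Cre under the acinar-specific elastase I promoter, so HPK1 and M46 were directed to acinar cells, while the mice kept their own HPK1 gene. Age, and by Xist and Ddx3y sex, differed between KMC and KC along with the transgene, and these differences cannot be told apart. The ratios of H2-D1 to H2-K1 and of H2-T23 to H2-D1 also differed between KMC and KC without overlap. Whether these mice differed in the H2 region, which holds most of the 10 genes, was not tested.

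MHC class I molecules show short peptides from inside the cell to CD8+ T cells and to natural killer (NK) cells. Peptides are cut by the proteasome, carried into the endoplasmic reticulum by the TAP transporter, and loaded with the help of tapasin onto a heavy chain paired with the light chain β2-microglobulin. Nearly all nucleated cells express the pathway, leukocytes at high levels. Interferons raise it, in part through the transcription factor IRF1, and NLRC5 binds with RFX and NFY factors at the promoters of class I genes.

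Total counts were 29766575 to 38745907 per library, and an amount of 3 counts corresponded to 0.0774 to 0.101 CPM before TMM scaling. CPM below are counts scaled to a common library size, with TMM factors from within each comparison. Map4k1, the gene of HPK1, was at 6.79 to 8.32 CPM in MC and 2.34 to 4.14 in its controls, and at 5.92 and 11.4 in KMC and 0.545 and 1.55 in KC. Libraries labelled HC had 5.05 to 7.93 CPM, below the 11.5 and 15.4 of their controls, which taken alone goes against the label of an HPK1 transgene. In all 3 comparisons Map4k1 differed in the direction of the leukocyte gene Ptprc. Ptprc was at 35.05 to 62.6 CPM in the libraries labelled HC and at 72.6 and 116 CPM in their controls. What the leukocyte difference made of the Map4k1 values was not tested. The transgenes are cDNA cassettes, and whether their reads were counted under Map4k1 is not given in the sources used here, so these values may not show the transgenes. These libraries are named throughout as the libraries labelled HC. The 16 acinar genes examined, 15 of them listed in the MC table, took 27.6% to 44.0% of the counts in the MC experiment, 4.19% to 6.48% in the HC experiment and 19.0% and 36.8% in KMC against 47.2% and 51.9% in KC. Summed over a list of 7 stomach and gut genes, the libraries labelled HC were at 4603 to 6357 CPM and their controls at 708 and 1636. By Xist and Ddx3y, HC 3 differed in sex from the other 4 libraries of its table, and both KC libraries differed from both KMC libraries. HC 3 and HC control 2 held 96 and 119 counts of H2-Ea-ps, a gene of the H2 region that the H2 haplotype of C57BL/6 does not express, while HC 1, HC 2 and HC control 1 held 0, which allows up to 3 counts. Because these libraries stand apart in the H2 region, the members' median and H2-T23 are also given without these 2 libraries. In bulk RNA, more cells of a type and more RNA per cell cannot be told apart, and the labels do not say how the pools were drawn, so each p measures only the spread between these pools.

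In the annotation of GRCm38 the 10 genes are protein coding, and 8 of them lie in the H2 region of chromosome 17, within which Psmb9 (34181987 to 34187764) and Tap1 (34187553 to 34197225) lie head to head and Psmb8 (34197721 to 34201454) follows Tap1. B2m lies on chromosome 2 (122147686 to 122153083) and Nlrc5 on chromosome 8 (94434356 to 94527272). H2-K1 (33996017 to 34000347), Tapbp (33915899 to 33929292), H2-D1 (35262730 to 35267499), H2-T24 (36005695 to 36020560) and H2-T23 (36029773 to 36032855) make up the rest. Promoters from RefSeq (GRCm38.p6) were matched for 8 of the 10 genes, with no entry for H2-T24 or Nlrc5. The 250 bases before the start site of 5 of them are shown 5′ to 3′ on the gene's strand, because interferon and NLRC5 are known to act on class I genes through elements of this kind, and because the members' levels went together. Capitals mark matches, on either strand, to the interferon-stimulated response element core GAAANNGAAA, the STAT dimer site TTCNNNGAA, the CCAAT box CCAAT, the X2-box core TGACG and the NF-kB site. The stretches are H2-K1 at chr17:34000348-34000597 (minus strand), H2-D1 at chr17:35262844-35263093 (plus), B2m at chr2:122147437-122147686 (plus), H2-T23 at chr17:36032702-36032951 (minus) and Tap1 at chr17:34187306-34187555 (plus), whose start site is 225 bases from that of Psmb9 on the opposite strand.
H2-K1: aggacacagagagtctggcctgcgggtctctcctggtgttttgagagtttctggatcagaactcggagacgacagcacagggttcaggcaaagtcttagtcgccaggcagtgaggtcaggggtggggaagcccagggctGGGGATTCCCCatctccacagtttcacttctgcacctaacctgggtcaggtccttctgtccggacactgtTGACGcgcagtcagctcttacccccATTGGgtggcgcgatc
H2-D1: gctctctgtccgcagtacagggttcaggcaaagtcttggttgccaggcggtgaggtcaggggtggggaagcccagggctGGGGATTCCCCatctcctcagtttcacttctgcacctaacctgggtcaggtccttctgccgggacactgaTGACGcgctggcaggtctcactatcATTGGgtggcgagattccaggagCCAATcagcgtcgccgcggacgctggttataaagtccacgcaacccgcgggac
B2m: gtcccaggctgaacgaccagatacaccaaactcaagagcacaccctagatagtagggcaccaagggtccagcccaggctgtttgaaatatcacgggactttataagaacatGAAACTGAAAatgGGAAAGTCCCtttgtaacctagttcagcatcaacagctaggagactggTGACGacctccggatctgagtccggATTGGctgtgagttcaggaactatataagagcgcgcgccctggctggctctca
H2-T23: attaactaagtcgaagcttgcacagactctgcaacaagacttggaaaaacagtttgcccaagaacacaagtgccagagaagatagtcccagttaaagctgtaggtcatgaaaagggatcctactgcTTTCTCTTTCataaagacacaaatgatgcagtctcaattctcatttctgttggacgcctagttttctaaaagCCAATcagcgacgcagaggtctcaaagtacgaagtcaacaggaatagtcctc
Tap1: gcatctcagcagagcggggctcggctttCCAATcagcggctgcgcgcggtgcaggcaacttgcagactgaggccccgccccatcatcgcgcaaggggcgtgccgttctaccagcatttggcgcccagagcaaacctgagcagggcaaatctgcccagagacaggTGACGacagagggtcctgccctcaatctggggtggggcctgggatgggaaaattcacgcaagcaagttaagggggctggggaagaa

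H2-K1 and H2-D1 carry the NF-kB match (overlapping matches on the same bases), the X2-box core and a CCAAT box in the same order, with 70 bases from the first base of the NF-kB match to that of the X2-box core. The X2-box core lies 25 bases before a CCAAT box in H2-K1, H2-D1 and B2m alike, the order of the X and Y boxes known from class I promoters. B2m also holds the response element core 139 bases before its start site, and H2-T23 holds one on the other strand 124 bases before its own. Tap1 and Psmb9 share an X2-box core, read on opposite strands from the bases between their start sites. The STAT dimer site was matched in Psmb8 only, and Tapbp held CCAAT boxes alone. Among the 8 promoters, 7 held CCAAT, 5 the X2-box core, 3 the NF-kB site, 2 the response element core and 1 the STAT dimer site. Over 27025 promoter stretches of the same length, the shares were 34.5%, 17.9%, 3.75%, 3.04% and 7.18%. Matches are a description of the letters and show no binding. Only these patterns were searched, so a promoter without a match can still hold a response element of other letters.

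All 10 genes were higher in every MC library than in every control library. The median of their log2 fold changes was 1.43, from 0.62 for Tapbp to 2.16 for Nlrc5, against a median of -0.02 over all 13902 genes tested. Groups that do not overlap in this direction made up 10.9% of all genes, and 9.89% did not overlap with MC lower. A gene was called when its adjusted p was at most 0.05 and its absolute log2 fold change at least 1. By edgeR's quasi-likelihood test 0 genes were called (0% of 13902), and a newer form of that fit also called 0%, while DESeq2 called 479 genes (3.28% of 14582), 456 of them higher, 7 members among them. Since this contrast was used to choose the genes, nothing is read from that count. Leaving out MC control 2 brought 718 edgeR calls of 14129 genes tested, and leaving out MC 1 brought 171 of 14132, with 6 members in each. Leaving out any other single library brought 0, and nothing is read from these counts of members either.

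In the HC experiment the members were mostly lower in the libraries labelled HC, by smaller amounts. Their median log2 fold change was -0.49, from -0.97 for Nlrc5 to 0.15 for H2-T23, against 0.0 over 18407 genes tested. H2-T24, B2m, Tap1, Psmb8 and Psmb9 were lower in all 3 libraries labelled HC than in both controls, and the other 5 overlapped. Of all genes, 16.1% did not overlap with HC lower and 17.5% with HC higher. edgeR called 104 genes (0.565%), its newer form 0.706% and DESeq2 2.97%, and 0 members were called by any of the 3. The count of edgeR calls was 379 without HC 1, 3 without HC 3 and 0 without HC 2 or without either control. The median was -0.23 without HC control 1 and -0.72 without HC control 2. Without both libraries that hold H2-Ea-ps it was -0.68, with all 10 genes negative. Without HC control 1 the single values were closer to 0, at -0.44 for B2m, -0.28 for Tap1, -0.33 for Psmb8, -0.18 for Psmb9 and -0.44 for Nlrc5, with H2-T23 at 0.81. These directions rest on libraries in which the Map4k1 count, whether or not it includes the transgene, is below that of the controls.

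KMC samples had more of all 10 transcripts than KC samples by the fitted values, and 9 of the 10 were higher in both KMC libraries than in both KC libraries, H2-D1 being the exception. The median log2 fold change was 1.31, from 0.37 for H2-D1 to 3.15 for Nlrc5, against 0.03 over 15733 genes. With 2 libraries on each side, 34.4% of all genes did not overlap with KMC higher and 30.9% with KMC lower. edgeR called 3 genes (0.0191%), which were Xist, Ddx3y and Kdm5d, and its newer form called 0.0254%. Without KMC 1 edgeR called 2312 genes, without KMC 2 it called 76, and without KC 1 or without KC 2 it called 0. DESeq2 called 13.8%, with H2-T23, Tap1, Psmb8, Psmb9 and Nlrc5 among them, and again nothing is read from members in that count. Scaling by library size alone moved the median of all genes to 1.47 and that of the members to 2.83, so that the members' distance from all genes was 1.36, close to the 1.28 under TMM.

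**Figure D1:**
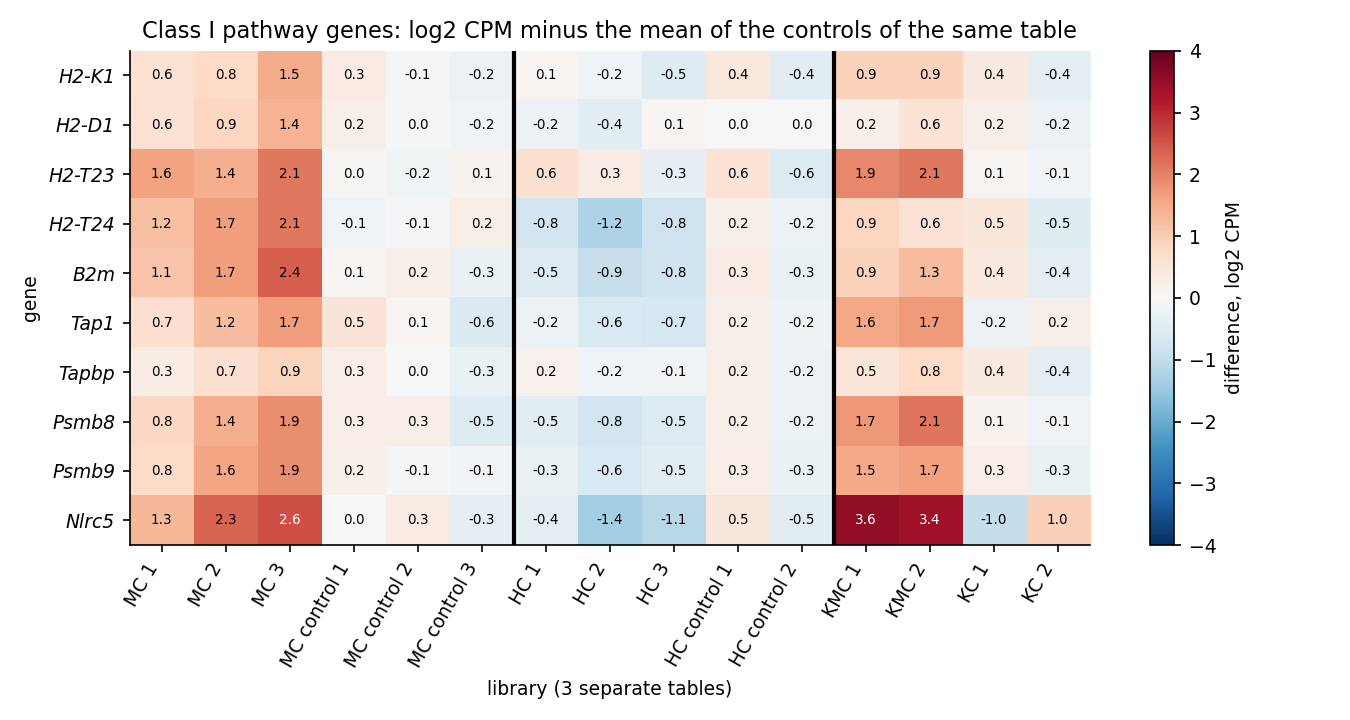
Each cell is a gene in a library, coloured by and labelled with its log2 CPM minus the mean log2 CPM of the control libraries of the same table, with black lines between the 3 tables. Every MC and KMC cell is above 0, whereas most cells of the libraries labelled HC are below 0 and Nlrc5 reaches the highest values, 3.55 in KMC 1.

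**Figure D2:**
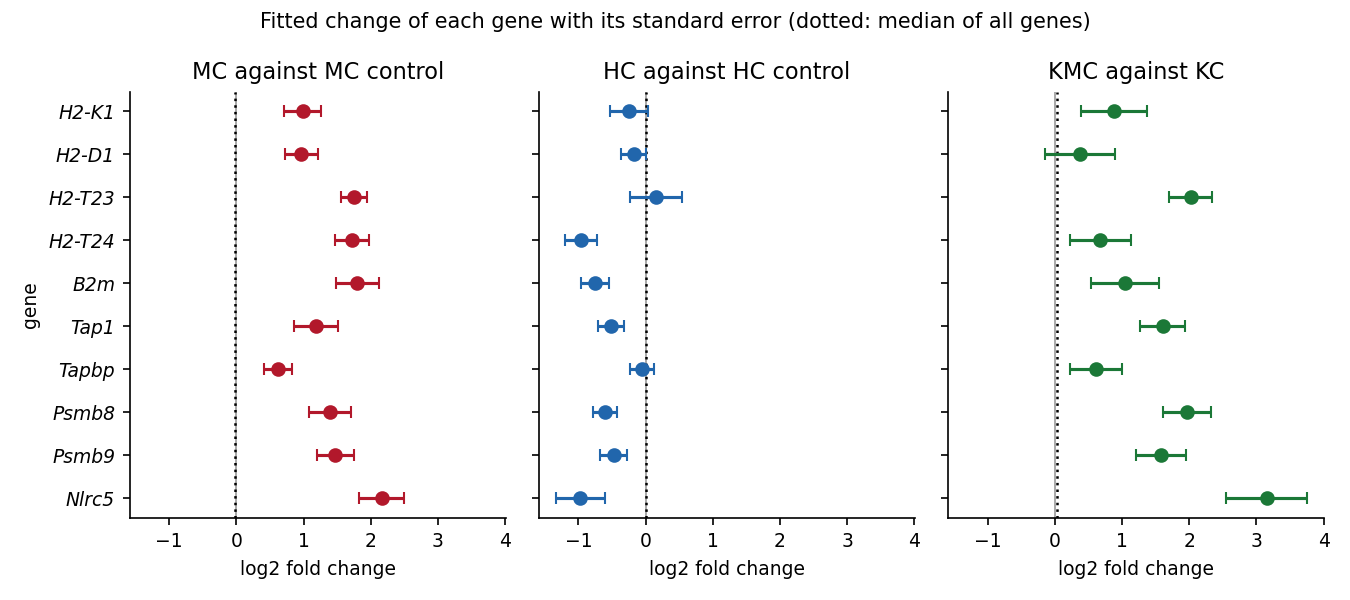
Points are fitted log2 fold changes of the 10 genes in each comparison, bars are standard errors and the dotted line is the median of all genes tested. Nlrc5 is farthest from 0 in all 3 panels, at 2.16, -0.97 and 3.15.

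Nlrc5, the transactivator of class I genes, was the member farthest from 0 in MC and in KMC. In the HC table it was level with H2-T24 within the standard errors, and H2-T24 was farther from 0 without HC 2 (-0.83 against -0.78), without HC 3 (-1.02 against -0.89) and without HC control 1 (-0.72 against -0.44). It was at 12.3, 24.8 and 29.55 CPM in MC 1 to 3 and at 4.86, 6.13 and 3.86 CPM in the controls, a log2 fold change of 2.16 ± 0.34 (SE, n = 3 and 3). MC 1 was the lowest of the MC libraries and still above every control. Nlrc5 in the libraries labelled HC stood at 13.5, 6.93 and 8.25 CPM, and at 24.5 and 13.0 CPM in their controls. HC 1 lay above HC control 2, so the groups overlapped, with a log2 fold change of -0.97 ± 0.37 (SE, n = 3 and 2). KMC libraries held 11.9 and 10.6 CPM, while KC 1 and KC 2 held 0.477 and 1.935 CPM, from 7 and 50 counts. The log2 fold change of 3.15 ± 0.60 (SE, n = 2 and 2) therefore rests on few KC reads, and the KC libraries lay farther from each other than the KMC libraries did. It was 4.55 without KC 2 and 2.53 without KC 1.

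H2-K1 and H2-D1 encode the classical heavy chains, which present peptides to CD8+ T cells. H2-K1 was at 573, 648 and 1046 CPM in MC and at 471, 355 and 317 CPM in the controls, a log2 fold change of 0.99 ± 0.28 (SE). H2-D1 had nearly the same levels, 573, 696 and 1006 CPM against 449, 374 and 339.6 CPM, with 0.97 ± 0.24. For both genes MC 3 was the highest and MC 1 the closest to the controls. In the HC table H2-K1 was at 458, 388 and 303 CPM in the libraries labelled HC and at 585 and 325 CPM in the controls. H2-D1 was at 622, 552 and 779.9 CPM against 739 and 735 CPM there. The fitted log2 differences of -0.25 ± 0.28 for H2-K1 and -0.18 ± 0.18 for H2-D1 were each no larger than their standard errors, and the groups overlapped. H2-K1 reached 225 and 227 CPM in KMC and 153 and 92.7 CPM in KC, a log2 difference of 0.88 ± 0.49. H2-D1 was at 264 and 337 CPM in KMC and 269 and 196 CPM in KC, with 0.37 ± 0.52. KC 1 lay between the KMC libraries for H2-D1, the only member whose groups overlapped there.

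H2-T23 encodes Qa-1, the nonclassical chain that is read by the inhibitory NK receptor CD94/NKG2A. It was at 114.5, 102 and 163 CPM in MC and 38.3, 33.5 and 41.0 CPM in the controls, a log2 difference of 1.75 ± 0.20, with a gap between the groups wider than the spread of the controls. KMC libraries were at 29.5 and 34.1 CPM and KC libraries at 8.44 and 7.24 CPM, a log2 difference of 2.02 ± 0.32. Of the 4 heavy chain genes it had the highest fold in KMC. Its level in the HC table followed the libraries with H2-Ea-ps rather than the labels: HC 3 and HC control 2 were at 66.3 and 56.9 CPM, and HC 1, HC 2 and HC control 1 at 129.5, 104 and 123 CPM. The fitted log2 difference of 0.15 ± 0.38 became -0.08 without both of these libraries. H2-T24, a less studied nonclassical gene of the same cluster, was much lower in level. It was at 11.9, 16.7 and 22.5 CPM in MC against 4.66, 4.85 and 6.07 CPM, a log2 difference of 1.72 ± 0.25. The libraries labelled HC held 4.22, 3.08 and 4.03 CPM and their controls 8.49 and 6.22 CPM, a log2 difference of -0.96 ± 0.24 with no overlap. Unlike H2-T23, it did not set HC 3 and HC control 2 apart. In KMC it was at 5.725 and 4.72 CPM and in KC at 4.36 and 2.245 CPM, where KMC 2 and KC 1 nearly met and the log2 difference was 0.67 ± 0.46.

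B2m encodes the light chain shared by all class I molecules. In MC it was at 307, 442 and 730.0 CPM, and in the controls at 146, 162 and 115 CPM, a log2 difference of 1.80 ± 0.32. The libraries labelled HC were at 338, 254 and 277 CPM and their controls at 587 and 392 CPM, a log2 difference of -0.76 ± 0.21. All 3 libraries labelled HC lay below both controls. KMC libraries held 201 and 258 CPM against 141 and 81.3 CPM in KC, a log2 difference of 1.04 ± 0.50. Counted per kilobase of exon, B2m was the most abundant of the 10 in MC, at a mean of 573 CPM per kb, against 294 for H2-D1, 257 for H2-K1 and 2.62 for Nlrc5. In the MC controls B2m, H2-D1 and H2-K1 were at 164, 150.3 and 129.7 CPM per kb.

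Tap1 encodes a subunit of the peptide transporter. Its levels were 44.5, 66.7 and 89.0 CPM in MC and 39.8, 29.9 and 18.6 CPM in the controls, a log2 difference of 1.18 ± 0.33. MC 1 was close to MC control 1. In KMC it was at 18.1 and 19.9 CPM and in KC at 5.17 and 7.24 CPM, a log2 difference of 1.61 ± 0.34. The libraries labelled HC were at 33.0, 25.4 and 23.85 CPM and the controls at 44.8 and 33.3 CPM, a log2 difference of -0.51 ± 0.19, where HC 1 and HC control 2 nearly met. Tapbp encodes tapasin, which holds the empty heavy chain beside the transporter, and it differed least of the 10 in MC. It was at 143, 184 and 217 CPM in MC and 141.5, 115.5 and 96.7 CPM in the controls, a log2 difference of 0.62 ± 0.20, with MC 1 just above MC control 1. Tapbp levels of 179, 142 and 147 CPM in the libraries labelled HC lay within the range of their controls, at 187 and 137 CPM. KMC libraries were at 49.9 and 62.1 CPM and KC libraries at 45.8 and 27.4 CPM, a log2 difference of 0.62 ± 0.39.

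Psmb8 and Psmb9 encode the interferon-induced catalytic subunits that replace Psmb5 and Psmb6 in the immunoproteasome. Psmb8 was at 22.2, 34.15 and 45.65 CPM in MC and 15.0, 15.1 and 8.67 CPM in the controls, a log2 difference of 1.39 ± 0.31. Psmb9 was at 11.6, 20.5 and 25.2 CPM in MC and 7.80, 6.52 and 6.29 CPM in the controls, a log2 difference of 1.47 ± 0.28. In both, the MC libraries kept the order seen for B2m, with MC 3 highest and MC 1 lowest. Psmb8 was at 20.1, 16.2 and 18.9 CPM in the libraries labelled HC and 32.6 and 23.2 CPM in their controls, a log2 difference of -0.60 ± 0.18. Psmb9 was at 15.3, 12.1 and 13.6 CPM there, against 22.55 and 15.5 CPM, with -0.47 ± 0.20. Neither gene overlapped between the groups, although HC 1 and HC control 2 were close for Psmb9. KMC and KC libraries were at 12.6 and 16.8 CPM and at 4.15 and 3.41 CPM for Psmb8, a log2 difference of 1.96 ± 0.36. For Psmb9 they were at 9.51 and 10.6 CPM and at 4.02 and 2.75 CPM, a log2 difference of 1.58 ± 0.38. Every KMC library was above every KC library for both genes.

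Ratios within a library do not depend on how the libraries are scaled. Set per kilobase of exon, the ratio of Psmb8 to its standard counterpart Psmb5 was 0.270 ± 0.083 (SD, n = 3) in MC and 0.0971 ± 0.0351 (n = 3) in the controls, and 0.286 ± 0.069 (n = 2) in KMC and 0.0366 ± 0.0165 (n = 2) in KC. For the libraries labelled HC it was 0.110 ± 0.025 (n = 3), below the 0.192 ± 0.030 (n = 2) of the controls. The groups did not overlap in any of the 3. Psmb9 to Psmb6 followed the same pattern, at 0.116 and 0.0393 on average in MC and its controls, 0.07 and 0.106 in the HC table and 0.148 and 0.0287 in KMC and KC. The ratio of Psmb10 to Psmb7, the other pair, overlapped in the MC and HC tables and was lower in KMC, at 7.88 on average against 21.4 in KC. B2m stood at 1.01 ± 0.14 of H2-K1 plus H2-D1 in MC and 0.593 ± 0.105 in its controls, and at 1.37 and 0.964 in KMC and KC, so the light chain differed more than the classical heavy chains. In the libraries labelled HC that ratio was 0.879 ± 0.100 against 1.28 ± 0.18. Tap1 to Tap2, the genes of the transporter's subunits, was at 1.296 and 0.716 in MC and its controls, 0.768 and 1.07 in the HC table, and 1.34 and 0.525 in KMC and KC, again without overlap. H2-T23 to H2-D1 was 0.151 in MC against 0.088, and 0.0951 in KMC against 0.0305.

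**Figure D3:**
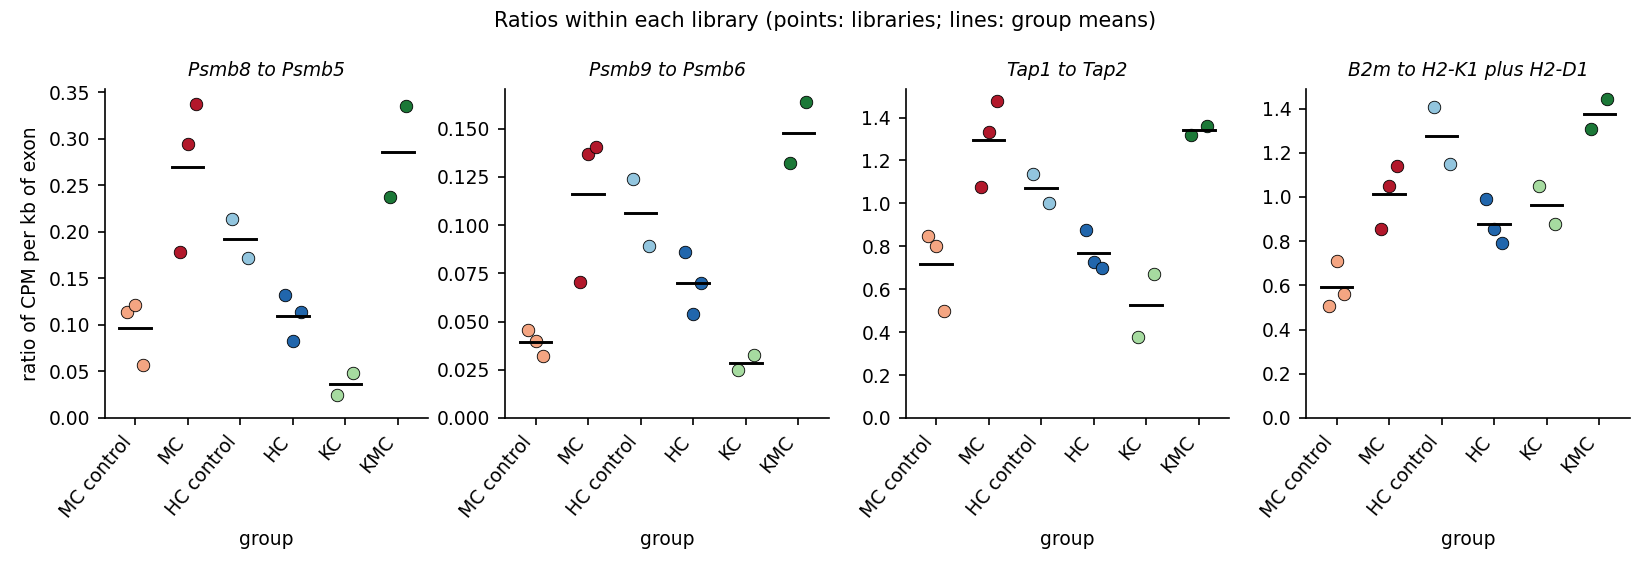
Points are the ratio of CPM per kb of exon of the named genes in each library, and lines are group means. In each panel every MC and KMC library lies above, and every library labelled HC below, all of its own controls.

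The 6 lists hold the other genes of the pathway, 72 in all, of which 65 were tested in MC, 66 in HC and 65 in KMC. By edgeR, adjusted over all genes, 0 of them were called in any comparison, with smallest adjusted p values of 0.0782, 0.196 and 0.0796. Leaving out MC control 2 or MC 1 brought 11 and 6 such calls in MC, leaving out HC 1 brought 1 in HC, and leaving out KMC 1 or KMC 2 brought 12 and 3 in KMC. At an unadjusted p under 0.05, 24 were higher and 0 lower in MC, where 9.2% and 5.46% of all genes were. In KMC 24 were higher and 2 lower, against 16.1% and 9.48% of all genes. The libraries labelled HC had 1 higher and 5 lower, against 8.39% and 7.47%. DESeq2 called 16 of them higher in MC and 12 higher and 1 lower in KMC, and 0 in HC, and the newer edgeR fit called 0. Median log2 fold changes over the lists were 0.21 in MC, -0.02 in HC and 0.48 in KMC.

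Among the other class I and class I-like heavy chains, 8 of 12 tested were higher in MC and 7 of 13 in KMC at an unadjusted p under 0.05, and 0 were lower. H2-Q6 and H2-Q7, both of the Qa-2 family and close enough in sequence that reads could be split between them, had the smallest p in each: H2-Q7 was at 17.1 to 46.1 CPM in MC and 6.56 to 7.47 in the controls, a log2 fold change of 2.11 ± 0.34 (edgeR adjusted p = 0.0815). H2-Q6 was at 17.0 to 35.6 CPM and 6.07 to 9.09 CPM, with 1.82 ± 0.29 (edgeR adjusted p = 0.0796). In KMC H2-Q7 differed by 2.42 ± 0.36 and H2-Q6 by 2.25 ± 0.39, each with an edgeR adjusted p = 0.0796. H2-M3, which presents formylated peptides, had log2 fold changes of 1.01 in MC, -0.44 in HC and 1.80 in KMC. In the libraries labelled HC, Cd1d1, the lipid-presenting chain, had -0.67 ± 0.21 (edgeR adjusted p = 0.214), and H2-Q2 had 0.53 ± 0.17 (edgeR adjusted p = 0.221).

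Of 7 other genes for loading, chaperoning and trimming, 0 reached an unadjusted p under 0.05 in MC or HC, where all 7 overlapped between the groups, and 2 were higher in KMC, where values lay in both directions. Tap2, the partner of Tap1, had log2 fold changes of 0.32 ± 0.17 in MC (edgeR adjusted p = 0.4), -0.03 in HC and 0.22 in KMC. Erap1, which trims peptides in the endoplasmic reticulum, had 0.35 ± 0.15 in MC (edgeR adjusted p = 0.341), -0.22 ± 0.15 in HC and 0.91 ± 0.32 in KMC (edgeR adjusted p = 0.147). Lnpep, another trimming peptidase, had 0.99 ± 0.39 in KMC (edgeR adjusted p = 0.171), and the chaperone gene Calr had 0.19 ± 0.24 in HC. In KMC Calr had -0.995 ± 0.668 with overlap and Canx, the gene of the chaperone calnexin, had -0.66 ± 0.51 without overlap (edgeR adjusted p = 0.37 and 0.432). For the PA28 cap genes, Psme2 had 0.42 ± 0.16 in MC (edgeR adjusted p = 0.3) and Psme1 0.37 ± 0.17, with 0.11 and -0.01 in HC and 0.40 and 0.46 in KMC. Psmb10 encodes the remaining immunoproteasome subunit, and it did not share the pattern of Psmb8 and Psmb9. It was at 71.6 to 77.4 CPM in MC and 57.1 to 107 in the controls, and at 30.1 to 60.5 CPM in KMC and 98.3 to 234 in KC, a log2 difference of -1.88 ± 0.59 (edgeR adjusted p = 0.129). Its ratio to Psmb7 was 28.1 and 14.6 in KC 1 and KC 2, and 10.7 and 5.09 in KMC 1 and KMC 2. The acinar share of the counts ran in the same order, from 51.9% in KC 1 to 19.0% in KMC 2. In the MC and HC tables the orders were not the same throughout. What acinar content made of the Psmb10 values was not tested. Pomp, the assembly factor, had 0.17 ± 0.11 in HC.

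Standard proteasome core genes gave no such pattern. Of 14, 0 reached an unadjusted p under 0.05 in MC or HC, with median log2 fold changes of -0.03 and 0.16, and 1 was lower in KMC, where the median was -0.38. Psma2 and Psma6, with the smallest p in MC, had -0.14 ± 0.12 each, and Psmb3 had 0.27 ± 0.12 and Psmb5 0.25 ± 0.14 in HC. In KMC Psmb5, the counterpart of Psmb8, was at 13.3 to 14.1 CPM against 18.8 to 44.4 in KC, a log2 difference of -1.20 ± 0.44 (edgeR adjusted p = 0.158). Psmb6 was at 33.0 to 36.8 against 43.2 to 82.8 CPM, a log2 difference of -0.85 ± 0.41. Lower Psmb5 and Psmb6 values thus entered the KMC ratios given above, whereas in MC these 2 genes had -0.12 and -0.10.

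Of 20 interferon signalling and class I promoter genes tested, 8 were higher in MC and 11 in KMC at an unadjusted p under 0.05, and 2 were lower in the libraries labelled HC. Irf9, the DNA-binding part of a complex activated by type I interferon, was at 42.7 to 56.9 CPM in MC and 20.4 to 27.6 in the controls, a log2 difference of 1.13 ± 0.16 (edgeR adjusted p = 0.0782). Irf1 had 0.91 ± 0.24 in MC and 0.93 ± 0.34 in KMC. Irf8, a factor of macrophages, dendritic cells and B cells, had 2.84 ± 0.44 in KMC (edgeR adjusted p = 0.0796) and -0.68 ± 0.20 in HC (edgeR adjusted p = 0.196). Ciita, the transactivator of class II genes and thus of antigen-presenting leukocytes, had 2.79 ± 0.61 in KMC (edgeR adjusted p = 0.0802) and 1.504 ± 0.254 in MC. Ifnar1, a chain of the type I interferon receptor, had -0.29 ± 0.11 in HC (edgeR adjusted p = 0.28). The partners of NLRC5 at the promoter did not share a direction. In MC, Rfx5 had -0.14, Rfxap -0.19, Rfxank -0.305, Nfya 0.25, Nfyb -0.07 and Nfyc 0.03, none with an unadjusted p under 0.05. In KMC, Nfya had 1.17 ± 0.35 (edgeR adjusted p = 0.12) and Rfx5 0.59, whereas Rfxap had -0.68, Rfxank -0.31, Nfyb -0.38 and Nfyc -0.04. Ifng was not listed in the MC table and was at 0 to 0.172 CPM in the other libraries.

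Genes of the cells that read class I were also higher. Of 8 tested in MC, 7 were higher at an unadjusted p under 0.05, as were 4 of 7 in KMC, with median log2 fold changes of 1.86 and 2.09. Gzma, a granzyme of T and NK cells, was at 0.87 to 2.173 CPM in MC and 0.231 to 0.298 in the controls, a log2 difference of 2.48 ± 0.44 (edgeR adjusted p = 0.084). Klrk1, the activating receptor NKG2D, had 1.47 ± 0.30 in MC and 2.15 ± 0.59 in KMC (edgeR adjusted p = 0.1 and 0.106). Cd8b1 was at 0.703 to 0.713 CPM in KMC and 0 to 0.0774 CPM in KC (edgeR adjusted p = 0.1), the KC values being under that of 3 counts. In the libraries labelled HC the median was -0.27, with Gzmb at -1.24 ± 0.51 and Cd3e at -0.86 ± 0.58 (edgeR adjusted p = 0.312 and 0.532).

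Genes found on all leukocytes differed in the direction of the members in all 3 comparisons. This list of 5 summed to 207 to 314 CPM in MC and 61.5 to 175 in the controls, to 225 to 329.5 in the libraries labelled HC and 393 to 649 in their controls, and to 159 to 382 in KMC and 28.6 to 49.0 in KC. At an unadjusted p under 0.05, 4 of the 5 were higher in MC, 5 of 5 lower in the libraries labelled HC and 5 of 5 higher in KMC, with median log2 fold changes of 1.15, -0.95 and 2.78. Ptprc, which encodes the leukocyte protein CD45, was at 38.3, 41.0 and 52.4 CPM in MC and 13.4, 19.8 and 8.40 CPM in the controls. It was at 62.6, 35.0 and 49.0 CPM in the libraries labelled HC against 116 and 72.6, and at 33.4 and 58.6 CPM in KMC against 3.13 and 10.1. A gene that did not differ would shift when set against Ptprc, and as ratios to Ptprc 89.9% of all genes were lower in MC without overlap and 0.201% higher, 66.8% were higher in the libraries labelled HC and 0.674% lower, and 89% were lower in KMC and 1.17% higher. Nothing is read from the members' counts, since the same contrasts chose them. Set against Ptprc, 9 of the 10 members overlapped between MC and its controls: B2m stood at 10.9 ± 3.0 times Ptprc in MC and 10.95 ± 2.75 in the controls, and Nlrc5 at 0.497 ± 0.155 and 0.378 ± 0.076. Tapbp alone did not overlap in MC, at 4.12 against 9.30, with MC lower. In KMC H2-K1, H2-D1, H2-T24, B2m, Tap1 and Tapbp stood lower against Ptprc than in KC. Against Ptprc, H2-K1, H2-T23, Tap1, Tapbp, Psmb8 and Psmb9 were higher in the libraries labelled HC than in the controls, without overlap. Macrophage genes (7) summed to 884 to 2795 CPM in KMC and 279.7 to 326 in KC, and to 1458 to 2294 in the libraries labelled HC and 2336 and 4040 in their controls, while MC and its controls overlapped. T cell genes were at 6.25 to 8.79 CPM in MC and 1.66 to 2.53 in the controls, NK cell genes at 2.44 to 4.40 and 0.331 to 0.566, and B cell genes at 2.67 to 62.9 and 1.12 to 1.98, while neutrophil genes overlapped. Dendritic cell genes were at 16.8 to 18.6 CPM in MC and 12.2 to 12.8 in the controls. Lymph node genes, without Glycam1, were at 5.85 to 118.5 CPM in MC and 2.84 to 9.02 in the controls. Their sums overlapped in all 3 comparisons. Whether lymph node tissue entered the pools was not tested. In KMC the T cell genes were at 11.5 to 13.3 CPM against 2.11 to 3.135 in KC, and the B cell, NK cell, dendritic cell and neutrophil sums were also higher without overlap. In the HC table the sums of B cell and neutrophil genes were lower without overlap, but T cell genes (19.7 to 55.1 against 36.9 to 70.1 CPM, 0 of 7 at an unadjusted p under 0.05), NK cell genes and dendritic cell genes overlapped. No listed gene of these leukocyte lists was at 0 throughout a table. The T cell gene Trac and the neutrophil gene Ly6g were not listed in the MC table, so the MC sums are without them. What these cells contributed to the members was not tested. Other cell types also differed in KMC: 15 of 16 acinar genes were lower than in KC without overlap (median log2 fold change -1.97, 2 of them at an unadjusted p under 0.05), and 6 of 6 fibroblast genes were higher without overlap (median 2.71, 5 of them at an unadjusted p under 0.05), whose part in the members' values was not tested. In MC and HC the sums of the acinar and of the fibroblast genes overlapped between the groups. Sums of endothelial genes were lower in the libraries labelled HC (208 to 297 CPM against 307 to 394), without overlap. Ductal (3040 to 3859 against 2274 to 2307) and islet sums (3218 to 5136 against 2759 to 2884) were higher there. In KMC endothelial and ductal sums were higher and islet sums lower than in KC, without overlap. In MC these sums overlapped, and their part in the members' values was not tested.

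**Figure D4:**
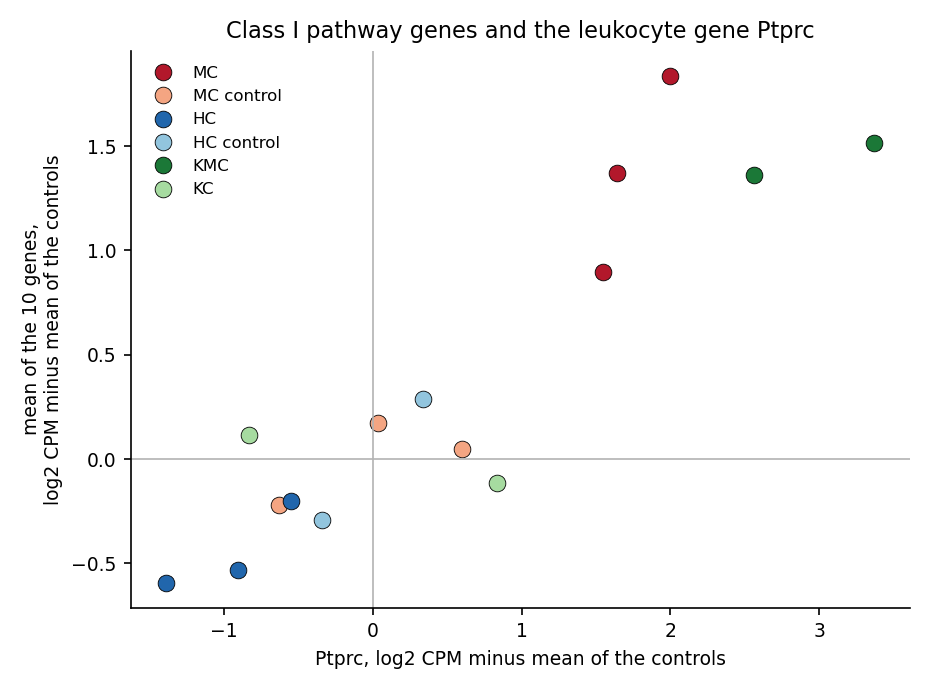
Each point is a library, with the mean of the 10 genes on the vertical axis and Ptprc on the horizontal axis, both as log2 CPM minus the mean of the controls of the same table. The 5 MC and KMC libraries lie at the upper right, from 0.90 to 1.84 for the members, and the 3 libraries labelled HC at the lower left, from -0.59 to -0.20.

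Over the 15 libraries, centred on their own controls, the 5 genes with the pattern most like the mean of the members were Ifi47 (r = 0.993), Parp9 (0.985), Phf11b (0.985), Phf11a (0.984) and Zbp1 (0.984), out of 13655 genes. Ifi47, Parp9 and Zbp1 are known interferon-stimulated genes. Ifi47 had log2 fold changes of 2.38, -0.92 and 2.44 in MC, HC and KMC, and Zbp1 2.91, -1.40 and 2.90. Irf1 had r = 0.931, Ptprc 0.907 and Map4k1 0.836. Within the 10, the r of each gene with the mean of the other 9 ran from 0.845 for H2-D1 to 0.99 for Psmb9. These r values describe 15 libraries that share 3 sets of controls, and they carry no test.

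Inside the H2 region, the libraries with H2-Ea-ps differed from the other libraries of the HC table in the balance of their class I genes. The ratio of H2-D1 to H2-K1 per kb was 2.93 in HC 3 and 2.57 in HC control 2, and 1.44 to 1.62 in HC 1, HC 2 and HC control 1. H2-T23 to H2-D1 was 0.0759 and 0.0692 in the former and 0.148 to 0.186 in the latter. By label, the groups of this table overlapped in both ratios. In the MC table, where H2-Ea-ps was not listed, H2-D1 to H2-K1 ran from 1.09 to 1.22 over all 6 libraries. In the KMC table H2-Ea-ps counts were few, 0 in both KMC libraries and 2 and 6 in KC 1 and KC 2. The class II gene H2-Eb1 held 5832 and 19118 counts in KMC 1 and KMC 2, and 322 and 563 in KC. The ratio of H2-D1 to H2-K1 was 2.00 and 2.40 in KC and 1.34 and 1.69 in KMC. That of H2-T23 to H2-D1 was 0.0280 and 0.0330 in KC and 0.0997 and 0.0905 in KMC. Whether KMC and KC mice differed in the H2 region itself was not tested. B2m, outside this region, did not follow the H2-Ea-ps split of the HC table. Reads of 100 bases can be shared between H2 genes: 4.64% of the windows of that length in the longest H2-D1 transcript and 7.28% of those in H2-T23 also occur in other genes, H2-Q1 among them, against 0% in H2-K1, H2-T24, B2m and Nlrc5. Tapbp shares 14% of its windows with the gene model Gm19412, and Psmb9 and Tap1 share 9.02% and 3.96% with each other, as transcripts from opposite strands.

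**Figure D5:**
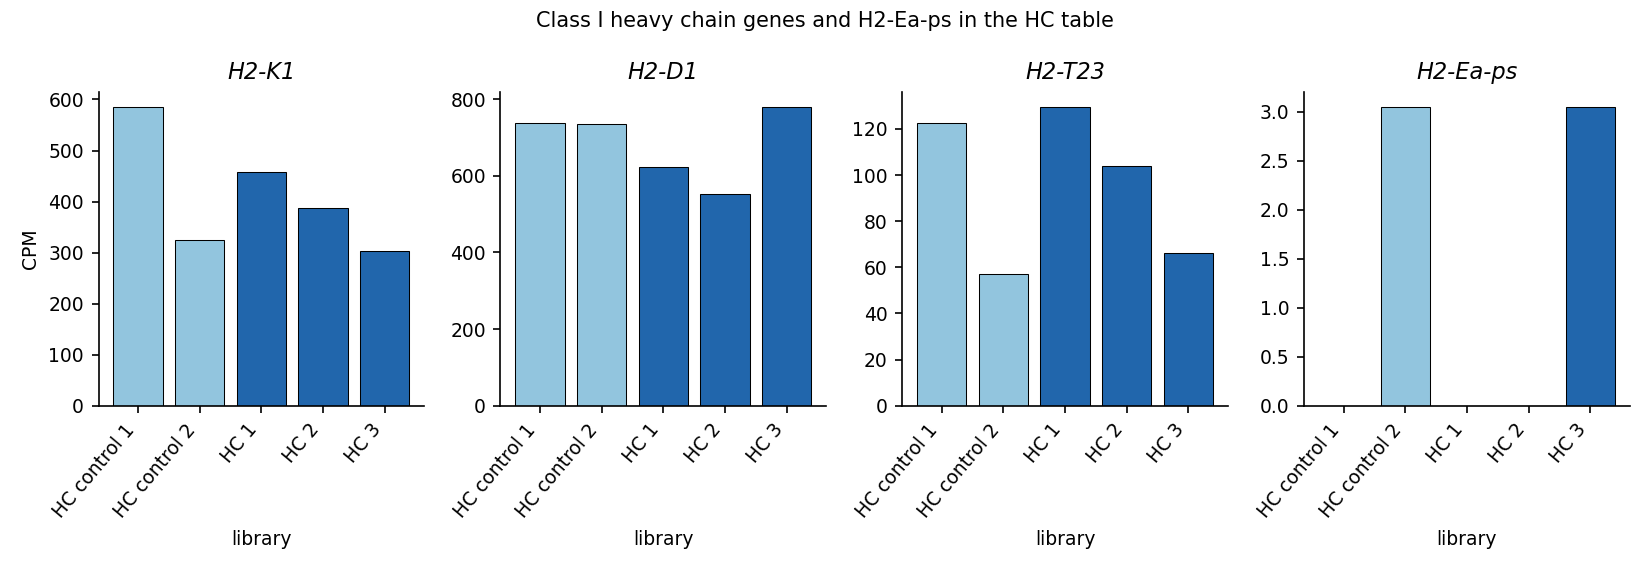
Bars are CPM of H2-K1, H2-D1, H2-T23 and H2-Ea-ps in the 5 libraries of the HC table, light for controls and dark for the libraries labelled HC. HC 3 and HC control 2 are the libraries with H2-Ea-ps, and they are also the lowest for H2-K1 and H2-T23.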

How the data were processed

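RNA-Seq of 15 pancreas libraries was analysed from raw counts per gene that the authors deposited in 3 tables, without normalization. According to the submitters' processing notes, reads were handled with bcl2fastq 2.17.14, STAR 2.6.1a and HTSeq 0.6.1 on mm10, and the authors used DESeq2. The sources differ on the library kit, so whether counting used strand was taken as open for overlapping genes such as Psmb9 and Tap1. A further deposited table of MC against control holds the authors' fold changes and p-values and was not used. Libraries had 29766575 to 38745907 counts, and counting error is only a part of the spread between pools. The MC table lists 15175 genes and the others 49585.

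Within each pair of groups, genes were filtered with filterByExpr, scaled by TMM and compared with edgeR 4.0.16 (glmQLFit, glmQLFTest) in R 4.3.3, with Benjamini-Hochberg adjustment over all genes. A gene was called with an adjusted p no higher than 0.05 and a log2 fold change of 1 or more in size. Standard errors (SE) were taken as the ratio of a log2 fold change to the root of its F statistic. CPM were counts scaled to a common library size. CPM per kb used the union of exons in GENCODE M21. Log2 CPM used a prior count of 2. The fit was tested on simulated data. Alternatives were DESeq2 1.42.0, DESeq2 size factors, library size alone or without acinar genes, other filters, a newer edgeR fit, the replicate number as a block, a joint fit of the HC and KMC tables, and leaving out libraries. Motifs were searched by pattern on both strands.

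The members and lists were chosen with earlier results of these data known. Named were the 10 members, the 2 genes with the smallest edgeR p from each of 6 pathway lists in each comparison, the 5 genes whose pattern was most like the members' mean (Pearson r), and Map4k1, Ptprc and H2-Ea-ps. H2-M3, Irf1, Psmb7, Canx, Rfx5, Rfxap, Rfxank, Nfya, Nfyb, Nfyc, Xist, Ddx3y and Kdm5d were added after their values were seen. A gene that this rule names, and an allele that KMC and KC mice share, are not reported here. Marker lists, 14 in all, described other cell types. Tables came from separate experiments, so levels were not tested across them.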

Additional observations from a re-analysis of the deposited data

Results flagged for a closer look

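H2-T24, B2m, Tap1, Psmb8 and Psmb9 went in opposite directions in the MC and HC experiments, with every MC library above all of its controls and every library labelled HC below all of its own. Of all genes tested, 10.9% were higher in MC without overlap and 16.1% were lower in the libraries labelled HC. The share that met both was not computed, and nothing is read from the number of members that did. The log2 fold change in MC minus that in HC was 2.68 for H2-T24, 2.56 for B2m, 1.99 for Psmb8, 1.95 for Psmb9 and 1.69 for Tap1. The difference between the experiments was not tested, since each has its own controls, age and table, and the genes were chosen with these directions known. Without HC control 1 the values in HC were nearer to 0, at -0.72 for H2-T24, -0.44 for B2m, -0.33 for Psmb8, -0.28 for Tap1 and -0.18 for Psmb9, with the direction unchanged for these 5. Ptprc differed in the same directions, with log2 fold changes of 1.66 in MC and -0.95 in HC.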

How the results depend on the processing

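The direction of every member in MC and in KMC was the same under all alternatives. Over single members 136 of 140 alternative values in MC, 143 of 150 in HC and 105 of 130 in KMC stayed within a spread set for the main value. That spread was not the standard error. Nlrc5 in KMC counted as within it at 3.96 without acinar genes in the library size, against 3.15 ± 0.60 (SE) in the main fit. In HC, signs changed for H2-T23 (-0.08 without HC 1 and without both HC 3 and HC control 2, an alternative added after the data were seen, and -0.3 without HC control 2), for H2-K1 (0.23 without HC control 1) and for Tapbp (0.02 without HC 2 and 0.19 without HC control 1), none of which exceeded its standard error in the main fit. The median over the members ran from 1.17 to 1.69 in MC and from -0.72 to -0.23 in HC with 1 library left out, and from 1.01 to 1.43 in KMC, and it was 2.83 and 2.28 in KMC with library size alone and without acinar genes. Genes called depended on the test: DESeq2 called 479 in MC, 475 in HC and 2130 in KMC against 0, 104 and 3, and pathway list genes numbered 16 in MC and 13 in KMC against 0. With library size alone 1 gene was called in MC (Serpina3g) and 4714 in KMC, 33 of them in the pathway lists. Without acinar genes in the library size 53 were called in HC and 3314 in KMC, 28 of them in the lists, and without a filter 395 in HC and 9 in KMC. The joint fit called 1 gene in HC (Cdhr3) and 3230 in KMC, 18 in the lists. Leaving out 1 library gave 0 to 718 calls in MC, 0 to 379 in HC and 0 to 2312 in KMC, with 0 to 11, 0 to 1 and 0 to 12 pathway list genes. In KMC, 2312 were called without KMC 1 and 76 without KMC 2. Without both HC 3 and HC control 2, 0 genes were called. Libraries with the same replicate number had correlations of -0.297 to 0.296 in MC, 0.17 and 0.189 in HC and 0.0514 in KMC. In MC the other pairs ran from -0.391 to 0.351. With 2 libraries in a group the deviations from its mean mirror each other, so pairing in HC and KMC could not be decided. With the replicate block 339 genes were called in HC and 2464 in KMC, 15 in the pathway lists, and 0 in MC. The causes were not tested.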

Other observations

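Further genes near the class I members separated the libraries of the HC table by H2-Ea-ps and not by label (chosen after their values were seen). H2-T22, a nonclassical class I gene, was at 27.5 CPM in HC 3 and 27.9 CPM in HC control 2, and at 53.2, 53.9 and 57.3 CPM in HC 1, HC 2 and HC control 1. H2-T10, its close relative, went the other way, at 9.20 and 9.68 CPM in the former and 3.78, 2.70 and 4.59 CPM in the latter. In KMC and KC, H2-T10 was at 1.523 and 1.501 CPM and at 5.38 and 1.86 CPM. The class II gene H2-Eb1 was also lowest in HC 3 and HC control 2, at 238.5 and 189.7 CPM, with 395, 269.7 and 756 CPM in the others. For this gene HC 2 lay close to HC 3. H2-T10 and H2-T22 are close in sequence, so reads could be assigned to either.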
